A study of Drosophila melanogaster with 3 samples.

Results

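ORC2 peaks of fewer than 400 bp that had another ORC2 peak less than 1000 bp away were examined on the autosomal arms 2L, 3L and 3R of the Drosophila melanogaster cell line ML-DmBG3-c2 (BG3). They were taken from the series list, which holds the ORC2 peaks called in both ChIP libraries. The rule asked for a width under 400 bp, a midpoint at or below 21 Mb on 2L, at or below 22.5 Mb on 3L or at or above 2.05 Mb on 3R, and a distance under 1000 bp to the nearest other midpoint of the list on the arm. It found 614 of the 4477 peaks of the list. Within the position limits the 3 arms held 2634 peaks, of which 2296 were narrower than 400 bp, so that the closely paired peaks were 26.7% of the narrow peaks and the other 1682 narrow peaks had no neighbour within 1000 bp. Over all peaks of the list, of any width and on any chromosome, 25.9% had a neighbour within 1000 bp. The members were thus chosen by the position, width and spacing of the called peaks, so these shares and the distances below describe them and are not tested.

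BG3 cells derive from the larval central nervous system at the third instar, and the labels give their genotype as y v f mal. The study names 2 ORC2 ChIP libraries and 1 input DNA library from asynchronous cultures. Both ChIP libraries, called replicate 1 and replicate 2 below, were made with a crude rabbit serum raised against the full-length ORC2 protein. Their extraction numbers differ, but no label ties them to separate cultures, and what separates them may be technical. The deposited lists held 8494 peaks in replicate 1 and 5905 in replicate 2. Read depth is unknown, and no peak list of the input library was used here.

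ORC2 belongs to the origin recognition complex (ORC), which binds chromatin before S phase and loads the MCM helicase at future origins of replication. Metazoan ORC shows little preference for particular DNA sequences, and in Drosophila it is found largely in open chromatin, often near the promoters of active genes. How close neighbouring peaks can be in a list depends on where the protein binds and on how reads are joined into peaks. Coordinates are those of FlyBase release 5, as in the files. No gene annotation or genome sequence of that release was used here, so the genes and the bases at the peaks were not analysed.

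The spacing of the pairs came first. Peaks were paired where each was the nearest neighbour of the other and both were members, which gave 253 pairs and used 506 of the 614 members. The midpoints of a pair lay 288.5 to 996.5 bp apart, with a median of 579.5 bp (quartiles 481 and 701.5 bp). Distances from 400 to 700 bp accounted for 166 of the 253 pairs, or 65.6%, and the fullest bin of 100 bp was 500 to 600 bp with 64 pairs. Only 2 pairs were closer than 300 bp and 12 were 900 bp or more apart. The distribution therefore rose from its short end to a broad maximum and fell again before the limit of 1000 bp.

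Gaps in the lists had a lower bound, whose origin was not tested. No 2 neighbouring peaks of a replicate list were separated by a gap of less than 200 bp, and since the series intervals span the peaks of both replicates the smallest gap in the series list was 171 bp. Within the 253 pairs the gap between facing edges ran from 171 to 890 bp with a median of 381 bp. The quartiles of the gap were 286 and 503 bp. How far the lower bound shapes the distances of the pairs was not tested.

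**Figure D1:**
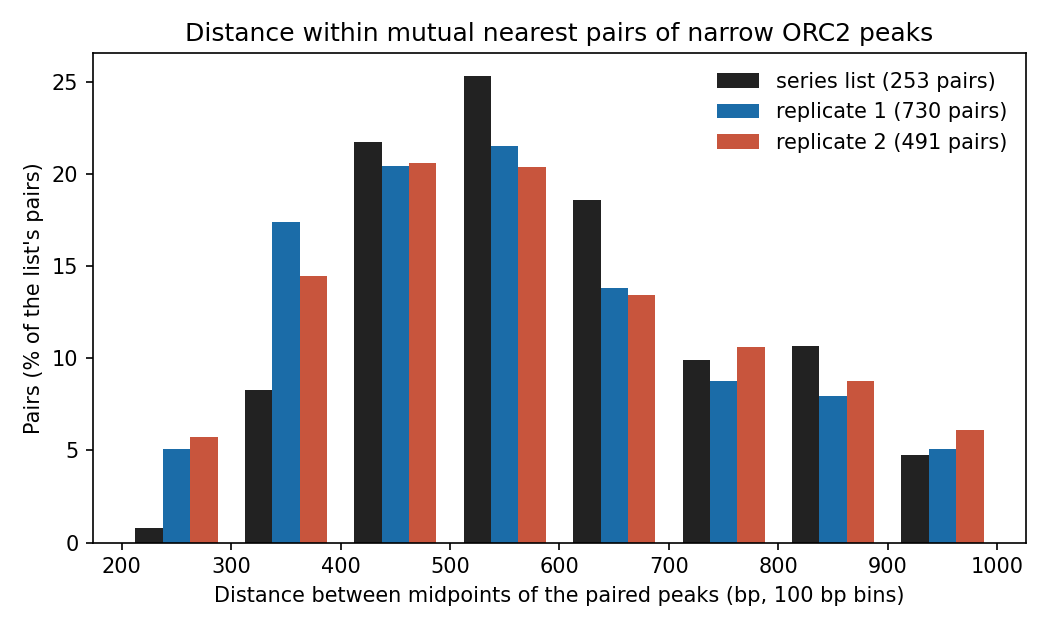
Distances between the midpoints of mutual nearest pairs of narrow ORC2 peaks, in bins of 100 bp, as a percentage of the pairs of each list (bars, for 253 series pairs, 730 pairs of replicate 1 and 491 of replicate 2). The series list peaks at 500 to 600 bp, with 25.3% of its pairs, and all 3 lists hold few pairs below 300 bp.

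The 5 closest pairs show what lies at the lower end. The closest was on 3R, with peaks at 3R:24888716-24888782 and 3R:24888996-24889079, 288.5 bp apart, and these belonged to a chain of 3 peaks. Its first peak scored 3.44 in replicate 1 and 4.43 in replicate 2, and its second scored 2.32 and 2.30. The next was on 3L, at 3L:13995200-13995259 and 3L:13995496-13995558, 297.5 bp apart, with scores of 2.12 and 3.02 for the first peak and 2.50 and 3.08 for the second. In the first of these pairs the same peak was the higher in both libraries, 1.48-fold and 1.92-fold, and in the second the partner was the higher, 1.18-fold and 1.02-fold. The other 3 closest pairs, 2L:13378562-13378589 with 2L:13378827-13378952, 3R:8251554-8251688 with 3R:8251895-8251998 and 2L:20084695-20084768 with 2L:20084988-20085131, were 314, 325.5 and 328 bp apart. The peaks of these 5 pairs were 28 to 144 bp wide.

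At the upper end, the most distant pair was 3L:20942544-20942873 with 3L:20943540-20943870, 996.5 bp apart. It was followed by 3R:17122184-17122343 with 3R:17123234-17123285 at 996 bp and by 2L:120594-120770 with 2L:121549-121780 at 982.5 bp. The narrow peaks just outside the distance limit were 2L:7281557-7281694 and 2L:7282588-7282663, 1000 bp apart, and 3R:17094724-17094862 and 3R:17095766-17095824, 1002 bp apart. At the width limit, the widest members measured 398 and 399 bp and the narrowest excluded peaks with a close neighbour measured 402 bp. Scores on either side of these limits overlapped: the members at 996 and 996.5 bp scored 1.89 to 5.20, and the excluded peaks at 1000 and 1002 bp scored 1.82 to 6.86. Beside the centromere, the last members inside the position limits started at 20942870 on 2L, 21532918 on 3L and 2176551 on 3R, and the first narrow paired peaks outside them at 21309287, 22734446 and 1834113.

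The distance within a pair was nearly the same in the 2 libraries. Measured from the replicate peaks under each pair, the median distance was 575.5 bp in replicate 1 (287.5 to 1001.5 bp) and 575 bp in replicate 2 (294 to 984 bp). The difference between the libraries had a median of 26 bp (quartiles 12 and 51.2 bp, largest 176.5 bp), and 186 of the 253 pairs, or 73.5%, agreed within 50 bp. Across the pairs the distances in the 2 libraries correlated with a Spearman rho of 0.946. The points are peaks that overlap between the libraries, so part of this likeness is built in. The gaps differed more, with medians of 387 bp in replicate 1 and 437 bp in replicate 2.

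Applied to the list of either library alone, the same rule found 1743 members among 4496 narrow peaks in replicate 1 (38.8%) and 1121 among 3223 in replicate 2 (34.8%). Both shares exceed the 26.7% of the series list, which holds fewer peaks. The median pair distance was 522.5 bp in 730 replicate 1 pairs and 546.5 bp in 491 replicate 2 pairs, shorter than in the series list. Pairs closer than 300 bp were 5.07% and 5.70% of the pairs of replicate 1 and replicate 2, against 0.791% of the series pairs. Many replicate pairs did not enter the series list as a pair. In replicate 1 both peaks overlapped a replicate 2 peak in 237 of 730 pairs (32.5%), 1 of the 2 did in 323 (44.2%) and neither did in 170 (23.3%). In replicate 2 both peaks overlapped a replicate 1 peak in 334 of 491 pairs (68.0%), 1 of the 2 did in 141 (28.7%) and neither did in 16 (3.26%). Of the pairs with both peaks shared, 9 of replicate 1 and 55 of replicate 2 were joined into 1 interval of the series list, so such pairs are missing there by construction.

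Most close neighbours came as couples, not as runs. A chain was defined as a run of neighbouring peaks of the list, of any width, each less than 1000 bp from the next, with at least 1 member among them. The 614 members fell into 311 chains. Of these, 252 (81.0%) had 2 peaks, 50 had 3, 7 had 4 and 2 had 5. The chains of 2 held 454 members, those of 3 held 132, those of 4 held 21 and those of 5 held 7. In the replicate lists chains of 2 made up 74.2% of 795 chains in replicate 1 and 78.3% of 516 in replicate 2, and the longest chains had 6 and 5 peaks. With no width limit the share in the series list was 81.1%, so it is not particular to narrow peaks. It also depends on the neighbour limit, with 98.7% at 500 bp and 74.3% at 2000 bp.

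Narrow peaks also stood beside wide ones. In 240 of the 311 chains all peaks were narrow members, and 71 chains held at least 1 peak of 400 bp or more. Of the 108 members outside the mutual pairs, 68 had such a wide peak as their nearest neighbour and 40 had a member that was itself closer to another peak. The 68 members beside a wide peak lay 542.5 to 996.5 bp from its midpoint, with a median of 762.5 bp, and the wide peaks had a median width of 517.5 bp. The narrow peaks scored 3.14 at the median (quartiles 2.61 and 3.95) and their wide neighbours 3.35 (2.799 and 4.34). The wide peak had the higher series score in 40 of 68 cases (58.8%). It was the higher in both libraries in 33 cases and the lower in both in 21, so neither kind of peak led throughout.

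The 3 longest chains, with ties ordered by summed score, show both kinds. The first spanned 3592 bp at 3R:16607478-16611069 and held 5 peaks, of which 2 were narrow. Its narrow peak at 3R:16609335-16609585 scored 3.65 in replicate 1 and 2.996 in replicate 2, and the one at 3R:16609835-16610200 scored 7.04 and 6.04. The second of these was the highest peak of the chain in both libraries, and its wide neighbour at 3R:16610500-16611069 followed with 4.31 and 4.22. Midpoints in this chain stepped by 557.5 to 956 bp.

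The second chain was made of narrow peaks alone, 5 of them within 2529 bp at 2L:479121-481649. Its midpoints stepped by 545, 567.5, 678 and 532 bp. The peaks in order scored 3.53, 3.71, 3.53, 2.99 and 2.41 in replicate 1 and 3.38, 3.38, 3.24, 3.83 and 3.35 in replicate 2. The series scores, 2.88 to 3.55, were close together, and the 2 libraries put different peaks on top. Widths ran from 100 to 313 bp.

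The last of these chains, 3R:5906438-5909114, had 4 peaks within 2677 bp, 1 of them, at 3R:5908171-5908703, wide. That peak scored highest in both libraries, with 4.53 in replicate 1 and 4.90 in replicate 2. Its narrow companions scored 2.91, 3.42 and 2.89 in replicate 1 and 2.94, 4.28 and 3.39 in replicate 2.

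**Figure D2:**
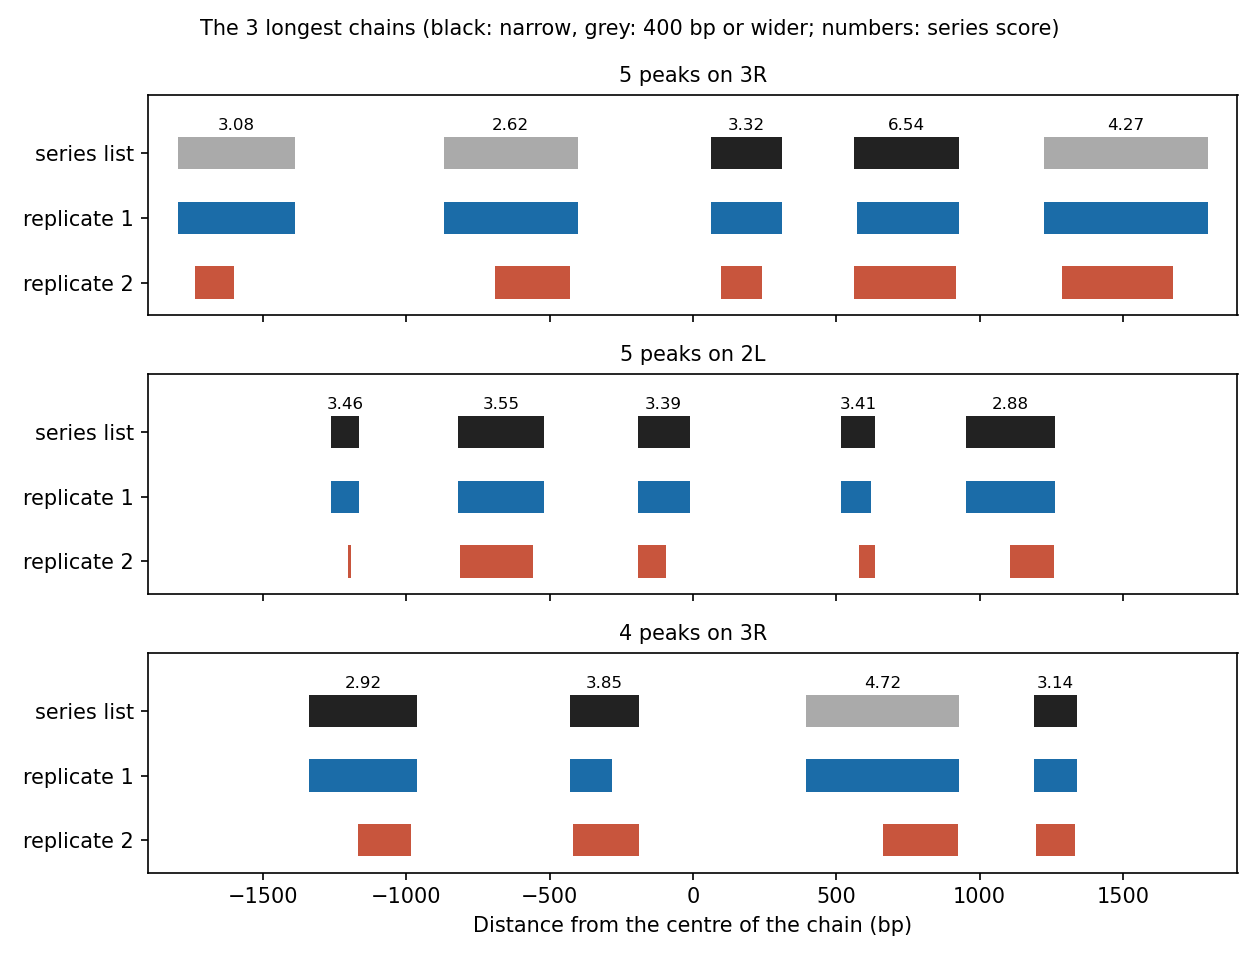
Intervals of the 3 longest chains, drawn to scale as distance in bp from the centre of each chain. The top row of each panel is the series list (black for narrow members, grey for peaks of 400 bp or more), and the rows below are the replicate lists. The numbers are series scores, and each series interval covers the replicate intervals beneath it.

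In the 50 chains of 3 peaks the middle peak had the highest series score in 19 and the lowest in 13. It was the highest in 20 chains by the replicate 1 scores and in 16 by the replicate 2 scores, and in both libraries in 11. The longer of the 2 steps exceeded the shorter by a median ratio of 1.43 (quartiles 1.14 and 1.72, largest 2.38). Chains of 3 were thus neither evenly stepped nor mostly topped by their middle peak.

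The score of a peak is the authors' own value, whose quantity the files do not name; it is used here only to compare peaks. The members had a median series score of 3.10 (quartiles 2.54 and 3.85, range 1.38 to 13.01). The narrow peaks without a close neighbour had a median of 3.08 (2.50 and 3.88, range 1.34 to 16.3). The scores of the 2 sets of peaks covered nearly the same range. In replicate 1 the medians were 3.15 for members and 3.09 for the others, and in replicate 2 they were 3.02 and 3.05. The order of the sets thus differed between the libraries. Median widths in the series list were 182 and 166 bp.

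The 2 libraries ranked the members in a similar order of score, among peaks that were called in both. Across the 614 members Spearman's rho between the replicate 1 and replicate 2 scores was 0.750, and across the 1682 other narrow peaks it was also 0.750. The absolute difference between the libraries had a median of 0.24 on the log2 scale for members and 0.22 for the others. Its upper quartiles were 0.375 and 0.373, and its largest values 1.21 and 1.33. For 414 members (67.4%) the replicate peaks overlapped by at least 50% of both, against 1136 of the others (67.5%). These values were nearly level between peaks with and without a close neighbour.

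The 2 peaks of a pair, by contrast, were little alike in score. Across the 253 pairs Spearman's rho between the score of the peak at the lower coordinate and that of its partner was 0.141. With the scores of replicate 1 alone it was 0.163 and with those of replicate 2 alone 0.123. These values are descriptions: the points share libraries and local background, and a correlation this weak is no finding. The higher score exceeded the lower by a median ratio of 1.32 (quartiles 1.15 and 1.59, largest 4.76). The ratio was under 1.2 in 82 pairs (32.4%), under 1.5 in 175 (69.2%) and under 2 in 225 (88.9%).

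To set close peaks beside more distant ones, all couples of narrow peaks that followed each other on the arm were taken, whether or not each was the nearest of the other. The rho of their scores was 0.174 under 1000 bp (296 couples), 0.145 at 1000 to 5000 bp (409 couples) and 0.112 at 5000 to 20000 bp (596 couples), with median ratios of 1.29, 1.30 and 1.33. In the replicate 1 list the rho was 0.152, 0.134 and 0.0788 over the same distances, and in the replicate 2 list 0.161, 0.102 and 0.109. The correlation was weak throughout and was largest at the shortest distance in all 3 lists, of which the series list is built from the other 2. In the mutual pairs of the series list it was 0.141, no larger than in its couples at 1000 to 5000 bp. Within the pairs, the rho was 0.206 below 500 bp (78 pairs), 0.265 at 500 to 600 bp (64 pairs), 0.0738 at 600 to 700 bp (47 pairs) and -0.0520 at 700 bp or more (64 pairs), with median ratios of 1.31, 1.26, 1.41 and 1.33. By arm it was 0.0215 on 2L (69 pairs), 0.257 on 3L (85) and 0.118 on 3R (99). None of these differences was tested.

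**Figure D3:**
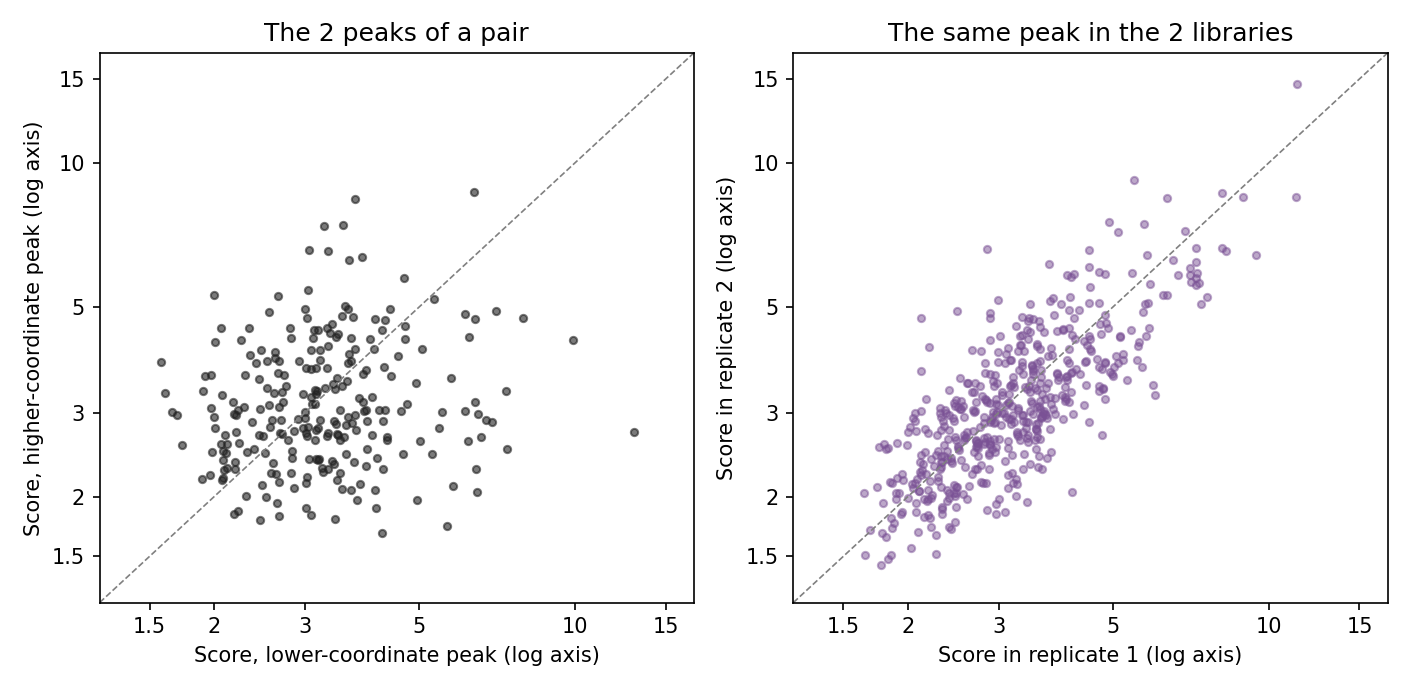
Left, series scores of the 2 peaks of each of 253 pairs; right, scores of the 506 paired peaks in replicate 1 and replicate 2; both axes are logarithmic and the dashed line marks equal scores. The points spread widely on the left, where rho is 0.141, and gather along the line on the right.

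Widths within pairs were no more alike than scores, with a rho of 0.0860 across the 253 pairs. The wider peak had the higher score in 132 of the 250 pairs that differed in both (52.8%). It did so in 60.4% of the replicate 1 pairs and in 51.1% of the replicate 2 pairs. Position along the chromosome did not set the order either: the higher score lay at the higher coordinate in 126 of 253 pairs (49.8%).

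Which peak of a pair was the higher was mostly shared by the libraries. The same peak had the higher score in both in 204 of 253 pairs, or 80.6% (95% exact Clopper-Pearson interval 75.2 to 85.3, which covers counting error only and treats pairs as independent). In the other 49 pairs the order was opposite or tied. The log2 score ratio within the pair correlated between the libraries with a rho of 0.753. Among pairs with a series ratio under 1.2 the libraries gave the same order in 40 of 82, and above that in 87 of 93 pairs (1.2 to 1.5), 49 of 50 (1.5 to 2) and 28 of 28 (2 or more). The series score is the mean of the replicate scores, so a large ratio itself favours the same order in both. Over all couples of neighbouring narrow peaks the order was the same in 79.1% under 1000 bp, 75.6% at 1000 to 5000 bp and 73.7% at 5000 to 20000 bp, with rho of the log2 ratio of 0.740, 0.739 and 0.713. The difference between close and distant couples was not tested.

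**Figure D4:**
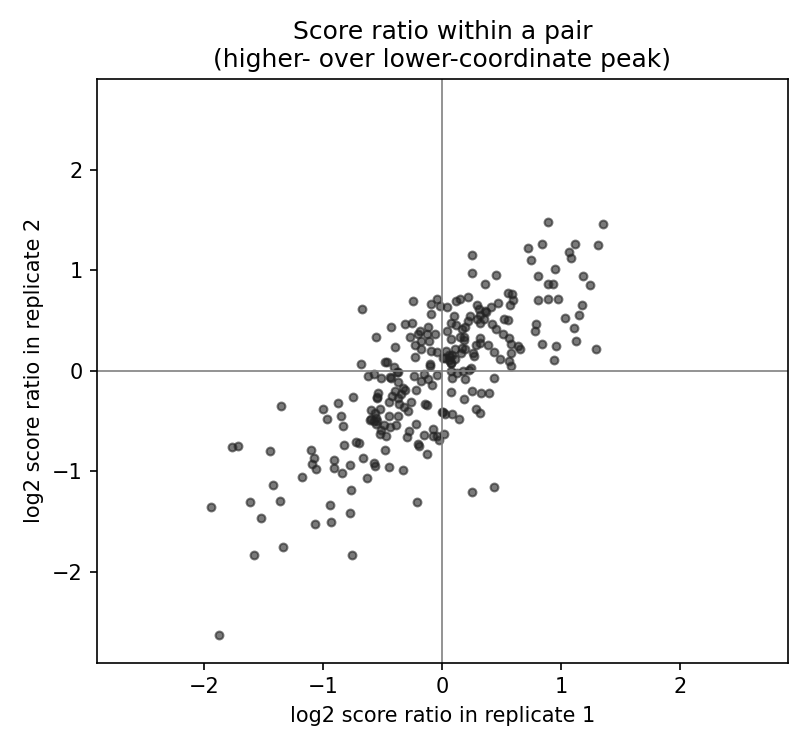
Log2 ratio of the score of the higher-coordinate peak to that of its partner in replicate 1 (x axis) and replicate 2 (y axis), 1 point for each of 253 pairs. Most points, 204, lie at the lower left and upper right, where both libraries give the same order.

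A gain or loss of score between the libraries was barely shared by partners. The log2 ratio of the replicate 2 to the replicate 1 score correlated between the 2 peaks of a pair with a rho of 0.130. Over all couples of neighbouring narrow peaks it was 0.142 under 1000 bp, 0.136 at 1000 to 5000 bp and 0.0471 at 5000 to 20000 bp. The sign of that ratio was the same for both partners in 138 of 253 pairs (54.5%).

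Both series scores exceeded the members' upper quartile, 3.85, in 20 of the 253 pairs (7.91%). By the score of their lower peak, the first pair was 3R:26886520-26886686 with 3R:26887134-26887327, 627.5 bp apart. Its first peak scored 7.22 in replicate 1 and 5.54 in replicate 2, and its second 8.94 and 8.47. Both peaks stood above the members' upper quartile in each library, 3.88 and 3.81, and the second was the higher in each. The next was 2L:7580178-7580218 with 2L:7580612-7580818, 517 bp apart in a chain of 3. There the first peak scored 4.82 and 5.86 and the second 5.86 and 4.51, so the libraries gave opposite orders. It was followed by 3L:6543295-6543433 with 3L:6543731-6543860, 431.5 bp apart, with 6.89 and 7.19 for the first peak and 4.70 and 5.09 for the second. The pairs 3R:21316546-21316708 with 3R:21317075-21317370 and 3L:16370903-16371081 with 3L:16371623-16371770 came after these, with lower scores of 4.82 and 4.73 in the series list. In all 5 pairs each peak scored at least 4.51 in each library.

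The most unequal pairs had 1 high peak beside an ordinary or low one. In the first, 2L:7810619-7810707 scored 11.4 in replicate 1 and 14.7 in replicate 2, and its partner 828 bp away at 2L:7811407-7811575 scored 3.09 and 2.38. The high peak exceeded its partner 3.68-fold in replicate 1 and 6.16-fold in replicate 2. The high peak was the highest-scoring of all members, and its partner lay below the members' median. On 3R, 3R:25574433-25574627 scored 5.43 and 5.88 and its partner at 3R:25575315-25575476 scored 1.82 and 1.65. On 3L, 3L:4840140-4840365 scored 7.33 and 5.60 and its partner at 3L:4840753-4840797 scored 1.91 and 2.18. In these, and in 2L:8162403-8162506 with 2L:8163009-8163198 and 2L:17243167-17243425 with 2L:17243725-17243832, the same peak was the higher in both libraries, by at least 2.53-fold.

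Peaks called in only 1 library seldom lay between the peaks of a pair. A peak found only in replicate 1 stood between them in 7 of 253 pairs, and one found only in replicate 2 in 2. The spacing of the lists limits these counts, since no gap between neighbouring peaks of a replicate list was under 200 bp. An added peak therefore needs at least 200 bp on either side, within the gap of the pair in that library. The median of that gap was 387 bp in replicate 1 and 437 bp in replicate 2. Many pairs thus had no room for such a peak, and the low counts do not show that these peaks avoid pairs. Within 1000 bp of a member on either side, 80 of 614 members (13.03%, 95% exact interval 10.5 to 15.95) had a replicate 1 peak without a counterpart and 25 (4.07%, 2.65 to 5.95) a replicate 2 peak without one. Among the 1682 narrow peaks without a series neighbour these were 312 (18.5%, 16.7 to 20.5) and 126 (7.49%, 6.28 to 8.85). Members were chosen for having another series peak in the same 1000 bp, so the 2 sets cannot be compared on these shares. Some narrow peaks without a neighbour in the series list thus had one in a replicate list.

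Within the replicate lists, narrow peaks with and without a close neighbour were compared by the share found in the other library. In replicate 1 it was 953 of 1743 (54.7%, 52.3 to 57.0) against 1388 of 2753 (50.4%, 48.5 to 52.3), and in replicate 2 it was 922 of 1121 (82.2%, 79.9 to 84.4) against 1640 of 2102 (78.0%, 76.2 to 79.8). The ranges are 95% exact intervals for counting error that treat peaks as independent. Members come in pairs and chains, so the intervals are no test of the difference. Median widths differed as well, with 106 against 99 bp in replicate 1 and 100 against 97 bp in replicate 2. Whether width accounts for the difference in sharing was not tested. Within bins of width the replicate 1 shares were nearly level, with 12.7% against 11.4% below 50 bp, 33.0% against 33.3% at 50 to 100 bp, 75.7% against 75.6% at 100 to 200 bp and 87.1% against 85.5% at 200 to 400 bp. In replicate 2 they were 52.3% against 44.7%, 83.0% against 77.0%, 94.9% against 95.8% and 98.6% against 100%. There the share with a neighbour was the higher below 100 bp and the lower above. The bins were added after the data were seen, and no difference within them was tested. Over the 2 libraries the share with a close neighbour exceeded that without by 4.24 ± 0.0220 percentage points (mean ± SD, n = 2; higher in 2 of 2 libraries). An exact two-sided sign-flip permutation test over these differences gives p = 0.5, the smallest that 2 libraries allow. A peak counted as shared in 1 library overlaps a peak counted as shared in the other. The 2 differences are thus not independent, so neither their small SD nor the test measures agreement between separate results.

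Closely paired narrow peaks were found on all 3 arms in like proportion. In the series list 172 members lay on 2L, 200 on 3L and 242 on 3R, or 8.20, 8.92 and 9.41 per Mb of the span within the position limits. This order was not stable: with a neighbour limit of 500 bp the densities were 2.29, 2.54 and 2.02 per Mb, and the replicate 1 list gave 21.8, 28.9 and 24.8. They were 26.9% of the narrow peaks on 2L (95% exact interval 23.5 to 30.5), 25.2% on 3L (22.2 to 28.3) and 28.1% on 3R (25.1 to 31.2). These intervals treat peaks as independent, though members come in pairs and chains, so their overlap is no test of the arms. In the replicate lists the percentage paired was 35.3 ± 1.95 on 2L, 36.7 ± 5.49 on 3L and 37.9 ± 0.927 on 3R (mean ± SD, n = 2). The arm means differed by less than the SD on 3L, and 3L was the highest arm in replicate 1, with 40.6%, and the lowest in replicate 2, with 32.8%. The percentage was higher on 3R than on 2L in both, with 38.6% against 36.7% in replicate 1 and 37.2% against 33.9% in replicate 2. That difference was not tested. The median pair distance was 558 bp on 2L, 622.5 bp on 3L and 572.5 bp on 3R.

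**Figure D5:**
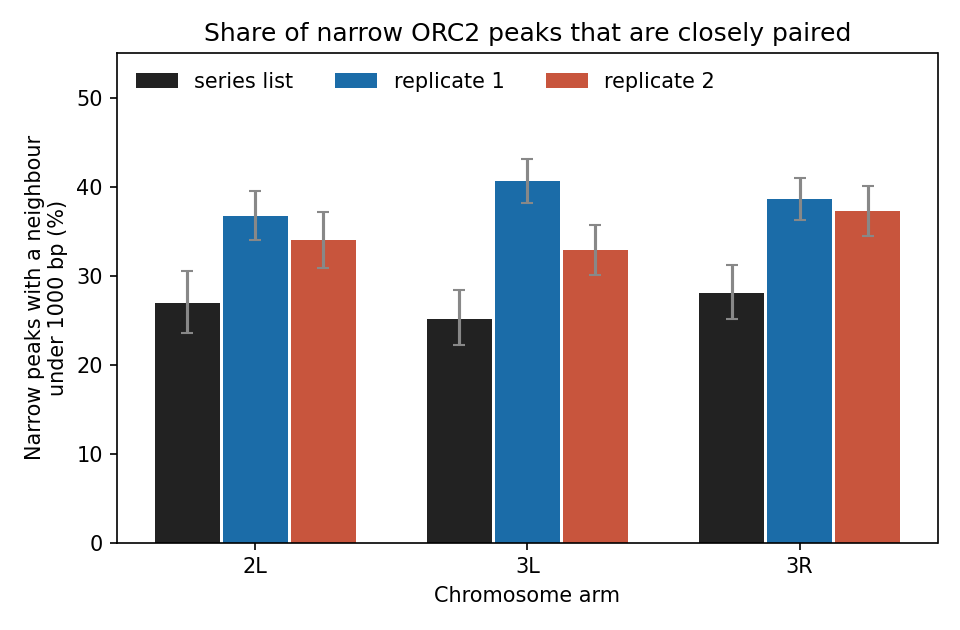
Percentage of narrow ORC2 peaks with another peak within 1000 bp on 2L, 3L and 3R, by list. Bars start at 0, and error bars are exact 95% intervals for counting error that treat peaks as independent. The series list stands lowest on every arm, between 25.2% and 28.1%, and 3L changes its rank between the replicate lists.

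Along the arms, the share of narrow peaks that were paired varied moderately. In segments of 5 Mb it ran from 17.1% (14 of 82) on 3L from 20 Mb to the position limit to 35.6% (48 of 135) on 3R at 20 to 25 Mb. On 2L it was 29.4% and 30.7% in the first 2 segments, 27.2% in the next, and 20.1% (27 of 134) and 19.4% (6 of 31) in the last 2. The last of these is cut at 21 Mb. Segments were counted in the series list only, and their differences were not tested. On 3L and 3R there was no such order, with 24.1, 24.2, 31.3, 25.9 and 17.1% on 3L and 28.1, 28.7, 21.4, 31.3, 35.6 and 24.1% on 3R.

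The chains themselves lay apart. The median distance from the centre of a chain to that of the nearest other chain was 52374 bp, with quartiles of 18963 and 160246 bp. Another chain lay within 10 kb for 47 of 311 chains (15.1%) and within 50 kb for 155 (49.8%). Of 693 windows of 100 kb, 461 (66.5%) held no member, 125 held 2 and 24 (3.46%) held 5 or more. Those 24 windows held 138 members, or 22.5% of all.

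The window with the most members was 3R:12000001-12100000, where 11 of 24 peaks were members, in 7 chains. The replicate lists had 14 and 19 members there. It was followed by 3R:9800001-9900000, with 8 of 10 peaks in 3 chains (12 and 8 in the replicate lists), and by 2L:400001-500000, with 7 of 13 peaks in 2 chains (10 and 9), which holds the chain of 5 narrow peaks described above. A window on 3L, 3L:10600001-10700000, also had 7 members, among 10 peaks. Counting peaks of any width, 16 of the 24 peaks in the first of these windows and 8 of the 10 in the second had a neighbour within 1000 bp. A window with more peaks has more chances to hold close neighbours. No comparison with other placements was made, so what sets these counts was not tested.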

How the data were processed

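The authors deposited 1 ORC2 peak list for each of 2 ChIP libraries and 1 for the series, on FlyBase release 5 per the file headers. The caller was PeakSeq, as each file's source field states; aligner, thresholds and any use of the input: not given in the sources used here. Each peak carries a score deposited by the authors, of unnamed quantity, used only to compare peaks. Each member's score was a mean of its overlapping replicate scores within 0.0001, and 611 of 614 members came from 1 peak of each replicate. Replicate peaks were assigned by an overlap of at least 1 bp. No read counts were given, so depth is unknown.

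Members, lists and named peaks were chosen with earlier results of these data known. Named were the 3 longest chains, the 5 closest, 3 most distant, 5 highest and 5 most unequal pairs, peaks at the limits and the 3 fullest windows of 100 kb; another window, tied in members, was added afterwards. Couples at larger distances, sharing by width, chains of 3 and segments were added after the data were seen. The code was tested on simulated lists. Python 3.11.15, numpy 2.4.6, pandas 2.3.3, scipy 1.17.1 and matplotlib 3.10.9 were used. 1 exact test was made, over the 2 libraries.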

Additional observations from a re-analysis of the deposited data

How the results depend on the processing

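With neighbours limited to 500 bp there were 157 members, a median pair distance of 452 bp, 98.7% of chains with 2 peaks and a score rho of 0.206; with 2000 bp the median distance was 653.5 bp, 74.3% of chains had 2 peaks and rho was 0.123. These shifts in number, distance and chain length follow from the limit itself. The ratio of members per Mb on 3R to that on 2L, 1.15 in the series list, turned to 0.884 with 500 bp (cause not tested) and was 1.12 with 2000 bp. A width under 300 bp gave a rho of 0.120 and an arm ratio of 1.19; no width limit gave a median distance of 625.5 bp and a rho of 0.209. Peaks above the median score left 152 members, 88.1% of chains with 2 peaks, a rho of 0.0772 and an arm ratio of 1.59. Requiring replicate peaks to overlap by 50% of both left 286 members, 88.0% of chains with 2 peaks, a rho of 0.188 and an arm ratio of 1.22. Keeping the sequence beside the centromere gave a rho of 0.154 and an arm ratio of 1.19. Measured between facing edges the median was 381 bp, and rho was 0.163 and 0.123 with the scores of replicate 1 and replicate 2. With the list of 1 library alone, members numbered 1121 to 1743, the median distance was 522.5 to 546.5 bp, 74.2% to 78.3% of chains had 2 peaks, rho was 0.152 to 0.165 and the arm ratio 1.14 to 1.15. The share of members at transcription starts was not run, for want of an annotation of this build. The results listed in this section come from no test. ChIP and input could not be paired, because no input peak list was used here. Depth being unknown, what the absence of a neighbour can show is limited.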
